A study of Mus musculus with 24 samples.

Results

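The regions described here are the stretches of open chromatin that lie at the ends of protein-coding genes in lineage-depleted mouse bone marrow, a preparation labelled as haematopoietic progenitors (HSPCs). They were found by merging the ATAC-seq peak lists of the 2 Utx WT libraries that carried Cas9 and an empty guide RNA vector, keeping autosomal regions with a peak in both, and keeping of these the ones within 1 kb of either end of a protein-coding gene. Of 42841 regions held by both libraries, 11866 (27.7%) met the rule, and the other 30975 lay farther from gene ends. Since these 2 libraries chose the regions, they hold all of them by definition, and every contrast that uses them is given as a description.

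ATAC-seq, which marks DNA that a transposase can reach, was carried out on cells of C57BL/6 mice that all carried Cas9. In the Smarca4 set (set B) there were Utx KO cells with a Smarca4 gRNA (Smarca4_2), Utx KO cells with empty vector, Utx WT cells with the same Smarca4 gRNA and Utx WT cells with empty vector, with 2 libraries each. In the Chd4 set (set A) there were Utx WT cells with a Chd4 gRNA (Chd4_1) and Utx WT cells with empty vector, again with 2 libraries each. ChIP-seq lists of PU.1 (3 Utx KO and 3 Utx WT libraries) and of H3K4me1 (2 Utx KO and 2 Utx WT libraries) came from lineage-negative marrow cells. Each target had 1 guide, so guide and target gene cannot be told apart, and the labels give a culture protocol (semi-solid and then liquid medium) for the Chd4 set alone. The labels do not say whether replicates came from separate animals, so the p-values measure the spread between these samples, which may be technical.

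At the start of an active gene, nucleosomes are displaced from the promoter so that transcription factors and RNA polymerase can bind, and many promoters are rich in CpG and in sites for widely expressed factors such as SP, NRF1, NF-Y and the ETS family. PU.1, encoded by Spi1, is the ETS factor that directs myeloid and lymphoid development. H3K4me1 marks enhancers and the flanks of promoters, where the start itself usually carries H3K4me3 instead. Utx (Kdm6a) is a histone H3K27 demethylase that works with the enzymes that place H3K4me1, Brg1 (Smarca4) is the ATPase of the BAF remodelling complex, and Chd4 is the ATPase of the NuRD complex.

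The promoter windows of 6 genes that the results return to are shown here, from 250 bases before to 50 bases after the gene start in RefSeq (GRCm38.p6), 5′ to 3′ on the strand of the gene. Smarca4 and Chd4 are the genes targeted by the guides. Rps18 has an open start where H3K4me1 was seen only in the Utx KO lists, Mctp2 one whose ATAC peak was absent in Utx KO, Col18a1 one without a peak after either guide (for Smarca4, in Utx KO cells), and Emp1 one where PU.1 was seen only in the Utx WT lists. Capitals mark matches to any of 10 motifs on either strand. For ETS factors these are GAGGAAGT, the letters favoured by PU.1, and CCGGAAGT, favoured by most other members. GGGCGG stands for the SP and KLF factors that bind GC-rich promoters. CCAAT is the box read by NF-Y at many promoters of widely used genes. TGACGTCA (CREB and ATF), GCGCATGC (NRF1) and CTCGCGAG (ZBTB33) contain CpG. TATAAA is the box read by the TATA-binding protein at focused promoters. AGATAA is the core read by the GATA factors of blood progenitors. TGACTCA is the site of AP-1.
Smarca4 promoter window, chr9:21615919-21616218, plus strand: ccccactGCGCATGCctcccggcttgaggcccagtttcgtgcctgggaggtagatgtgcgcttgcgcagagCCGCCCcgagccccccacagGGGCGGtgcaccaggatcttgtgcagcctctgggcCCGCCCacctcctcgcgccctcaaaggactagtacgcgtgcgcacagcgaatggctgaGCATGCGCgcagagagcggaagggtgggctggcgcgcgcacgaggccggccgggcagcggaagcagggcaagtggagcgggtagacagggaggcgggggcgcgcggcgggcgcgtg
Chd4 promoter window, chr6:125095731-125096030, plus strand: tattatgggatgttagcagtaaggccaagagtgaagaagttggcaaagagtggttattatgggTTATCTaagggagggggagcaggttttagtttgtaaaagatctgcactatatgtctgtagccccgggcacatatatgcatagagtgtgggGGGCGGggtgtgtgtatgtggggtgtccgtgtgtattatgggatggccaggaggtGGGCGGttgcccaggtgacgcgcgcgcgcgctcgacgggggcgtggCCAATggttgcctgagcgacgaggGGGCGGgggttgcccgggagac
Rps18 promoter window, chr17:33955616-33955915, minus strand: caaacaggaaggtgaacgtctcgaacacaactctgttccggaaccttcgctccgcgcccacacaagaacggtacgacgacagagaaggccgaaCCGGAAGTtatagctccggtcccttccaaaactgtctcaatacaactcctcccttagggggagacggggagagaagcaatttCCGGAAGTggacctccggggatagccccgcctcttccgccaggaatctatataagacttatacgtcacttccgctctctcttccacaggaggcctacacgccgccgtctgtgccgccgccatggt
Mctp2 promoter window, chr7:72306546-72306845, minus strand: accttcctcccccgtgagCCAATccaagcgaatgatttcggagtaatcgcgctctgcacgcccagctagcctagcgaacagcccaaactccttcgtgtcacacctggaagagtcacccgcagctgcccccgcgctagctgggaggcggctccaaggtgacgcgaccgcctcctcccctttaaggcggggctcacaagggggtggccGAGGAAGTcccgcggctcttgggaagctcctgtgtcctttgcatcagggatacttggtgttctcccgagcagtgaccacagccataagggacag
Col18a1 promoter window, chr10:77166481-77166780, minus strand: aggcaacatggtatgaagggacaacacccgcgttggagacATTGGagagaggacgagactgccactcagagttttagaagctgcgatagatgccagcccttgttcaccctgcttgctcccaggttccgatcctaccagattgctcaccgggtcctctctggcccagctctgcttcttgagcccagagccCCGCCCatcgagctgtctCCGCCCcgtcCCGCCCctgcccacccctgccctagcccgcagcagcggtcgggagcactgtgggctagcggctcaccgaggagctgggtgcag
Emp1 promoter window, chr6:135362681-135362980, plus strand: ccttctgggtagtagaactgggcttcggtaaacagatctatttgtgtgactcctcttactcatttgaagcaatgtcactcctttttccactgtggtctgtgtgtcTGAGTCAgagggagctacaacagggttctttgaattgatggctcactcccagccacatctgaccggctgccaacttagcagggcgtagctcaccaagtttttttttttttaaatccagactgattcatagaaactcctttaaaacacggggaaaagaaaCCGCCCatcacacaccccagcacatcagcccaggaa
The Smarca4 window held 2 NRF1 and 3 SP and KLF matches, the Rps18 window 2 ETS matches, the Mctp2 window 1 PU.1 match and the Emp1 window 1 AP-1 match. A match is a run of letters and not a bound site.

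The ATAC lists held 24833 to 50927 peaks and give no score or read count, so their depth is unknown and peak width is the one size they carry. A width given for a library is that of the widest peak touching the region, and such a peak may reach beyond it. The PU.1 lists held 137850 to 171535 islands and the H3K4me1 lists 43706 to 54654. A longer list has more chances to hold a region, and list lengths are given beside the guide comparisons and the H3K4me1 lead. H3K4me1 Utx WT replicate 1 stood apart from replicate 2, with 6.93 M against 14.2 M reads in its islands, and the H3K4me1 differences, leads and counts of change and the ChIP classes are also given without it. In bulk samples a peak missing in fewer or more cells of a type cannot be told apart from a change within cells.

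Most of the regions were promoters. Strand was known for 17492 of 21900 protein-coding genes, and by it 8764 regions (73.9%) lay at the start of at least 1 gene, 830 (7.0%) only at the other end of a gene, and 2272 (19.1%) at ends of genes without a strand. Of all members, 8947 (75.4%) overlapped a gene end. They touched 11747 of 20665 autosomal protein-coding genes (56.8%), and 960 of them held the starts of 2 or more genes. Gene starts lay in regions with a median width of 1081 bp, against 523.5 bp at other ends and 507 bp for the regions away from gene ends. At the limit of the rule, the last regions inside lay 999 bp from Cfap97 and Dpep2 and 1000 bp from Il2ra, and the first outside lay 1001 bp from Mical1, Lif and Nxpe3. All 6 of these were held by all 10 other ATAC libraries.

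The share of a chromosome's open regions that lay at gene ends ran from 22.5% on chromosome 18 to 35.0% on chromosome 19. Arhgap39, Atp6v0a1, Grn, Hes1 and Mllt6 had the most such regions, with 4 each. At Hes1, a transcriptional repressor downstream of Notch, all 4 were held by both Utx KO Smarca4 gRNA libraries, both Utx KO empty libraries and both Utx WT Smarca4 gRNA libraries. In the Chd4 set, 3 and 1 of the 4 were held by the Chd4 gRNA libraries and 3 and 3 by the empty-vector libraries.

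Around open gene starts the 3 assays had different shapes. Among 14811 autosomal genes with a promoter window, 8082 (54.6%) had the window at a member and 6510 had no peak there in either Utx WT empty library of set B, which are called closed starts here. ATAC peaks were centred on the open start, but these starts were chosen by peaks there in the Utx WT empty libraries of set B. The ATAC shape is therefore a description. PU.1 islands, which played no part in that choice, were centred on the open start too. PU.1 islands covered the start itself at 90.0%, 86.2% and 90.4% of open starts in the Utx KO libraries and at 86.4%, 88.6% and 90.1% in the Utx WT libraries, and by 2000 bp into the gene they covered at most 19.6%. H3K4me1 had a dip at the start and was higher within 1000 bp on both sides. It covered the start of 54.9% and 71.2% of open genes in Utx KO and of 42.7% and 65.3% in Utx WT. At 1000 bp into the gene it covered 86.6% and 92.8% in Utx KO and 78.9% and 90.7% in Utx WT, and at 1000 bp before the start 69.2% and 81.3% in Utx KO and 60.0% and 80.9% in Utx WT. All 4 libraries had this dip at the start, and closed starts did not show it. There H3K4me1 coverage was 18.9% and 23.4% in Utx KO and 22.1% and 24.5% in Utx WT at the start, and lower at 1000 bp on either side.

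**Figure D1:**
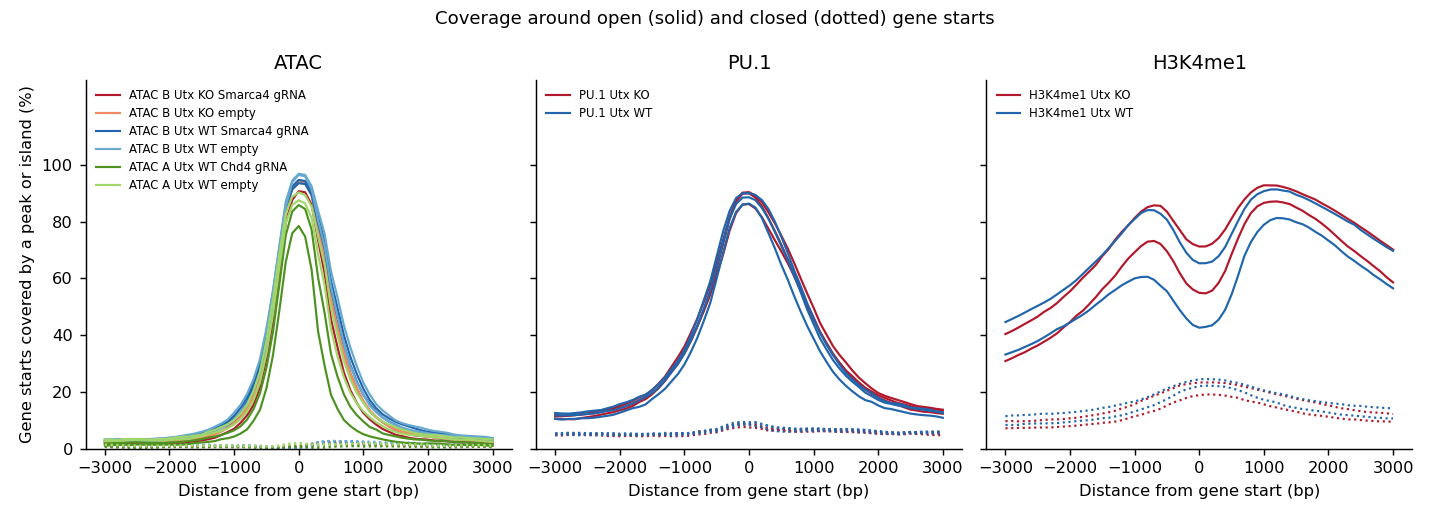
Share of gene starts covered by a peak or island (y axis, %) against distance from the start (x axis, bp; positive values lie inside the gene), one line per library, solid for the 8082 starts at a member and dotted for the 6510 closed starts. ATAC coverage peaks at open starts, which were chosen by ATAC peaks there. PU.1 coverage peaks at open starts too, while H3K4me1 dips there to between 42.7% and 71.2% and is higher 1000 bp into the gene.

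Open starts also differed in sequence from closed ones. The ratio of observed to expected CpG had a median of 0.80 in the 8082 open windows, 0.21 in the 6510 closed windows and 0.60 in all 14811. The SP and KLF letters were found in 69.8% of open windows, 20.2% of closed windows and 47.8% of all. The ETS letters stood in 9.56% of open, 0.72% of closed and 5.56% of all windows, and the NRF1 letters in 6.10% of open, 1.03% of closed and 3.80% of all. The TATA box and GATA letters went the other way, with 6.35% and 5.54% of open, 23.3% and 15.2% of closed and 13.9% and 9.82% of all windows. NF-Y letters were about as frequent in open (39.3%) as in closed windows (39.8%). The PU.1 letters were found in 2.88% of open windows, 3.84% of closed and 3.28% of all. CpG content differs between open and closed windows, several of the motifs contain CpG, and its part in these shares was not tested.

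**Figure D2:**
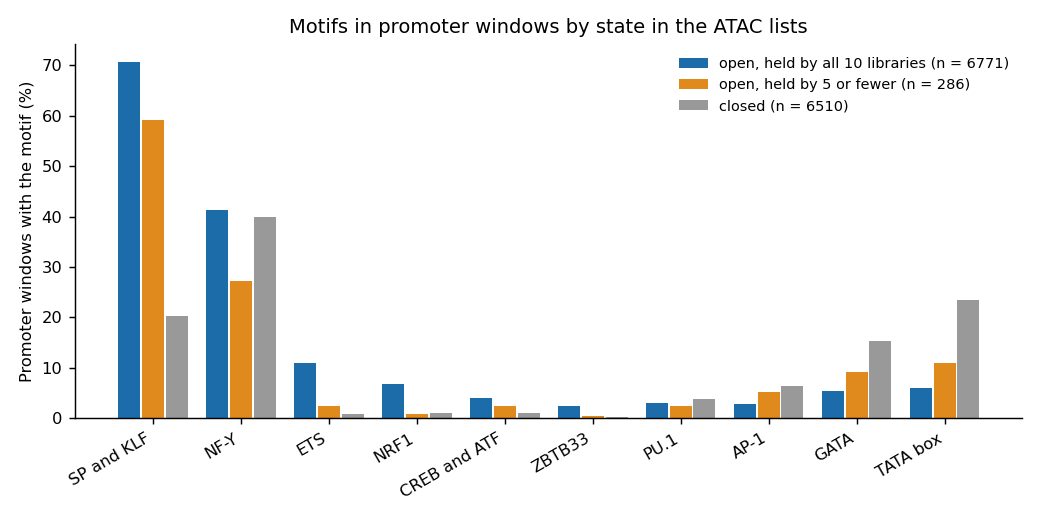
Share of promoter windows with each motif (y axis, %) for open starts held by all 10 other ATAC libraries (n = 6771), open starts held by 5 or fewer (n = 286) and closed starts (n = 6510). ETS and NRF1 letters are at 10.9% and 6.82% in the widely held windows and at 2.45% and 0.70% in those held by 5 or fewer.

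Retention among open starts also differed with some of the letters. The 773 open windows with the ETS letters were held by all 10 other ATAC libraries in 95.3% of cases, against 82.6% of the 7309 without. The 493 with the NRF1 letters were held by all 10 in 93.7% of cases, against 83.1% of the 7589 without. For AP-1 letters the share was 76.7% of 253, against 84.0% of 7829 without, and for the TATA box 78.8% of 513, against 84.1% of 7569 without. For the PU.1 letters it was about the same with (84.1% of 233) as without (83.8% of 7849). All 6 PU.1 libraries had an island at 97.0% of the 233 windows with PU.1 letters and at 96.1% of those with ETS letters, against 85.2% and 84.4% of windows without. The 345 open windows with PU.1 in none of the 6 libraries held the ETS letters in 0.58% and the AP-1 letters in 8.41% of cases. In the Chd4 gRNA libraries 98.2% and 95.7% of windows with ETS letters were held, against 90.5% and 84.0% of windows without. Widths and CpG content differ between these groups and their part was not tested.

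PU.1 islands overlapped 87.4%, 83.5% and 87.2% of the regions at gene ends in the 3 Utx KO libraries and 83.5%, 85.4% and 86.3% in the 3 Utx WT libraries. The groups overlapped, with means of 86.0 ± 2.19% and 85.1 ± 1.44% (SD, n = 3 each), and a difference of 0.94 percentage points that was within the spread (two-sided exact permutation test, p = 0.6, with 0.1 the smallest p that 3 against 3 allows). It was 0.157 to 2.20 points with 1 library left out and 3.67 points with the upper 50% of each list. Away from gene ends, the overlap was 65.0%, 59.7% and 64.4% in Utx KO and 63.3%, 63.7% and 63.0% in Utx WT. Regions at gene ends were thus 22.3 points higher than the rest on average, in 6 of 6 libraries (two-sided exact sign-flip permutation test over libraries, p = 0.03125, adjusted p = 0.12 over 12 tests), which did not pass after adjustment. Measured over promoter windows, the share was 87.9% to 91.6% at open starts, against 9.43% to 11.5% at closed ones. With the rest weighted to the same widths in 5 strata the gap was 10.5 points.

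H3K4me1 islands overlapped 90.0% and 94.4% of the regions in Utx KO and 82.4% and 94.9% in Utx WT. Both Utx KO values lie between those of the Utx WT libraries, and the means of 92.2 ± 3.09% and 88.6 ± 8.84% (SD, n = 2 each) did not differ beyond that spread (exact permutation test, two-sided, p = 1, smallest possible 0.33). The difference was 3.56 points, -2.69 points without Utx WT replicate 1 and 9.82 points without Utx WT replicate 2. Away from gene ends, the shares were 62.2% and 66.99% in Utx KO and 67.6% and 77.0% in Utx WT. The lead of gene ends over the rest was therefore 27.9 and 27.4 points in the Utx KO libraries, above the 14.8 and 17.9 points in the Utx WT libraries, whose lists were longer (44089 and 43706 islands in Utx KO, 51394 and 54654 in Utx WT). This difference of 11.3 points had p = 0.33 (exact permutation test, two-sided), the smallest that 2 against 2 can give, and did not pass. It was 9.72 points without Utx WT replicate 1 and 8.92 points at matched widths. Over all 4 libraries the lead of 22.0 points (exact sign-flip permutation test, two-sided, p = 0.12, the smallest possible) did not pass. It was 24.4 points without Utx WT replicate 1, 1.41 points where an island had to cover 50% of the region, 11.05 points with the upper 50% of each list and 10.1 points at matched widths.

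**Figure D3:**
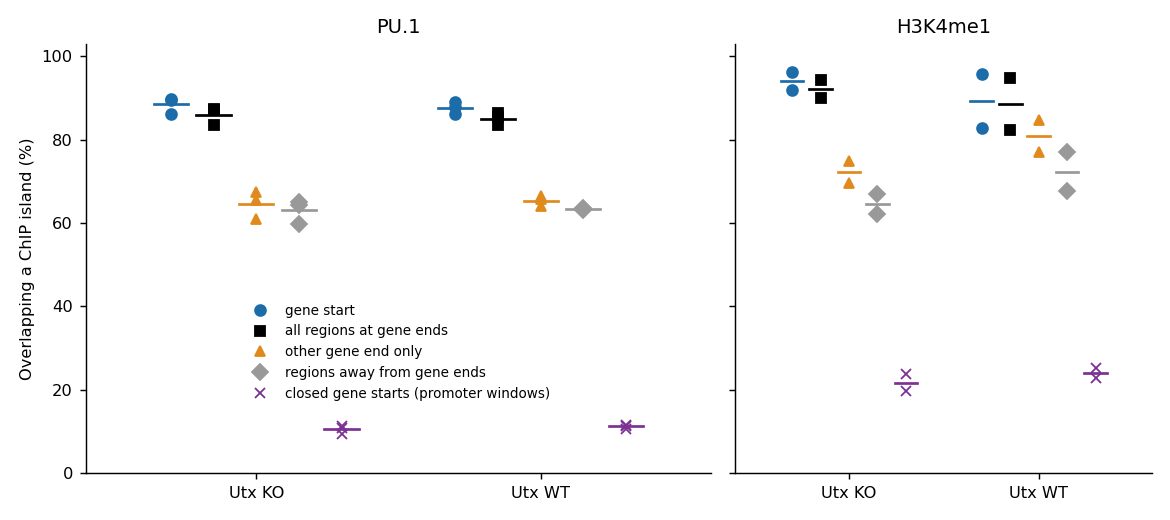
Share of regions that overlap a PU.1 or H3K4me1 island (y axis, %), one point per library with the group mean as a short line, Utx KO left of Utx WT. Regions at gene starts have the highest mean in both assays and genotypes. Closed gene starts, measured over promoter windows and not over regions, lie at 9.43% to 11.5% for PU.1 and 19.6% to 25.1% for H3K4me1. Over the same windows, open starts had PU.1 at 87.9% to 91.6% and H3K4me1 at 48.6% to 75.9%, values that are not plotted.

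Few regions changed their ChIP islands between genotypes. A PU.1 island present in all 3 Utx WT and none of the Utx KO libraries (lost) was found at 34 of 9578 tested regions at gene ends (0.355%), beside a background of 0.915% over all regions, and the reverse (gained) at 59 of 9692 (0.609%), beside 1.13%. Among the losses, the Emp1 start (epithelial membrane protein 1) had no island in the 3 Utx KO libraries and islands of 352, 349 and 343 reads in the Utx WT libraries. It was open in all 12 ATAC lists. Ppargc1a, which encodes the mitochondrial coactivator PGC-1alpha, had none in Utx KO and 195, 502 and 474 reads in Utx WT, and Slc22a3, an organic cation transporter, none in Utx KO and 116, 102 and 59 reads in Utx WT. Tmigd3 had 2 regions with PU.1 lost. Both had no ATAC peak in the 4 Utx KO libraries, and none in the Utx WT libraries of set A either. Among the gains, the Tmem18 start had 137, 130 and 122 reads in Utx KO and no island in Utx WT, and Dmrt2 had 164, 52 and 219 reads in Utx KO and none in Utx WT. The region at Exoc3l had 628, 482 and 588 reads in Utx KO and none in Utx WT, and the other 2 gains named by the rule were at Aldh1l2 and Heyl. Island reads are not scaled for depth and count the whole island, which may reach beyond the region. The losses numbered 56, 55, 66 and 53 without Utx WT replicate 1 or 3 or Utx KO replicate 1 or 3, and the gains 100, 111 and 120 without Utx WT replicate 2 or 3 or Utx KO replicate 2.

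H3K4me1 was lost at 98 of 9675 regions (1.01%, background 5.78%) and gained at 77 of 10574 (0.728%, background 0.92%). Losses were found at 33 of 7193 gene starts (0.459%), 49 of 624 other ends (7.85%) and 1647 of 20527 regions away from gene ends (8.02%). All 5 of the losses with the highest island counts lay at other ends. Traf4, a signalling adaptor, had no island there in Utx KO and 605 and 1869 reads in Utx WT, and Il4ra, the interleukin 4 receptor alpha chain, none in Utx KO and 436 and 858 reads in Utx WT. Vash1, Rps15a and Fam178b were the other 3. Of the 5 gains with the highest island counts, 4 were at regions that all 10 other ATAC libraries held, and Itpripl2 was the other. The start shared by Rps18, a protein of the small ribosomal subunit, and Vps52 had 785 and 2523 reads in Utx KO and no island in Utx WT, and Birc2, an inhibitor of apoptosis, had 764 and 536 reads in Utx KO and none in Utx WT. Mtmr6, a phosphoinositide phosphatase, had 574 and 519 reads in Utx KO, and Ppp2r2a, a regulatory subunit of protein phosphatase 2A, 384 and 502, with none in Utx WT for either. Without H3K4me1 Utx WT replicate 1 the losses numbered 205 and the gains 119, without Utx WT replicate 2 the gains 1271, without Utx KO replicate 1 the gains 165 and without Utx KO replicate 2 the losses 372. The gains numbered 121 when Utx WT empty ATAC replicate 2 was left out of the rule.

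Open regions at gene ends were retained more often than other open regions. Peaks were found at 92.2% and 87.0% of them in the Utx KO Smarca4 gRNA libraries, 93.4% and 93.3% in the Utx KO empty libraries, 93.8% and 96.1% in the Utx WT Smarca4 gRNA libraries, 81.3% and 72.7% in the Chd4 gRNA libraries and 86.7% and 82.8% in the empty-vector libraries of the Chd4 set. Of the regions away from gene ends, Utx KO Smarca4 gRNA held 65.9% and 49.5%, Utx KO empty 74.5% and 75.3%, Utx WT Smarca4 gRNA 80.9% and 86.0%, Chd4 gRNA 49.4% and 32.3% and its empty vector 62.3% and 52.0%. The gap averaged 25.1 ± 10.2 points (SD over 10 libraries) and was positive in 10 of 10 (two-sided exact sign-flip permutation test, p = 0.00195, the smallest possible, adjusted p = 0.0117 over 12 tests). Within set B it ran from 10.1 to 37.5 points and within set A from 24.4 to 40.4. The sign-flip test, here and for starts against other ends below, took the libraries as independent. Same-numbered libraries with and without a guide may share a source, and the p-value would then be too small. Wide regions were retained more often everywhere, and with the rest weighted to the widths of the members the gap was 8.05 points (0.95 to 18.1 over the libraries, exact sign-flip permutation p = 0.00195).

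All 10 libraries held 8295 of the 11866 regions (69.9%), against 7226 of the 30975 others (23.3%), and no library held 107 (0.90%), against 1318 (4.26%). The 5 widest of these 107, chosen by width in the Utx WT empty library, lay at Gp9, a platelet glycoprotein, Mn1, Phlda2, Phospho1 and Abi3, and Acy1. Retention also differed with width. Among the 2366 narrowest members (209 to 600 bp) regions were held by 60.9% of libraries on average, against 50.9% for other regions of those widths, and the 2381 widest members (1568 to 6862 bp) by 97.9%, against 94.96% for other regions of at least 1568 bp.

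Regions at gene starts were retained more often than regions at other ends. Starts were held at 94.8% and 91.0% by the Utx KO Smarca4 gRNA libraries, 95.5% and 95.4% by Utx KO empty, 95.5% and 97.1% by Utx WT Smarca4 gRNA, 85.0% and 77.3% by Chd4 gRNA and 89.2% and 86.2% by the empty vector of that set. Regions at the other end only were held at 69.0% and 51.2% by Utx KO Smarca4 gRNA, 74.0% and 74.8% by Utx KO empty, 79.4% and 86.7% by Utx WT Smarca4 gRNA, 52.7% and 37.5% by Chd4 gRNA and 68.7% and 57.2% by its empty vector. The gap was 25.6 ± 9.72 points (SD over 10 libraries), above 0 in 10 of 10 (exact sign-flip permutation test, two-sided, p = 0.00195, adjusted p = 0.0117 over 12 tests), and 9.30 points when starts were weighted to the widths of the other ends. Other ends were above the regions away from gene ends in all 4 libraries of set A, and above them in 3 and below them in 3 of the 6 of set B, a difference that was not tested.

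**Figure D4:**
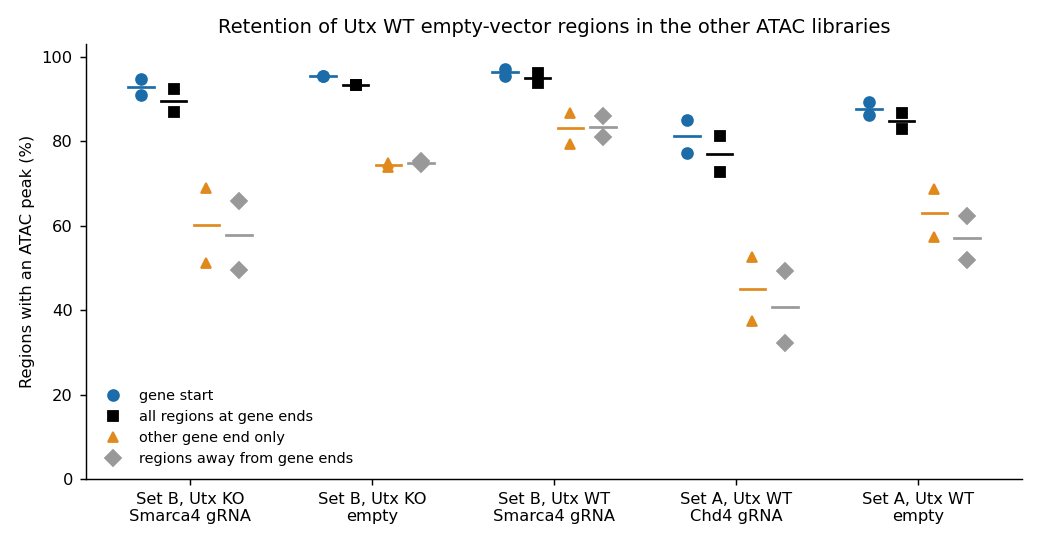
Share of regions with an ATAC peak (y axis, %) in the 10 libraries that did not choose the regions, one point per library with the group mean as a short line. Gene starts lie between 77.3% and 97.1%, while other gene ends go down to 37.5% and regions away from gene ends to 32.3%.

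In Utx KO cells, the Smarca4 gRNA was set against empty vector with libraries that the rule did not use. The gRNA libraries held 92.2% and 87.0% of the regions and the empty libraries 93.4% and 93.3%, a difference of -3.73 points with both gRNA libraries lower (exact permutation test, two-sided, p = 0.33, the smallest possible, adjusted p = 0.4). Their lists were shorter too, with 35975 and 29930 peaks against 40477 and 41024. With lists cut to equal length the difference was -0.58 points. That cut keeps the widest peaks of every list, also in the libraries that chose the regions. It left 10064 members, so list length and the choice of members change together. With whole lists the difference was -6.37 points without gRNA replicate 1 and -1.10 points without gRNA replicate 2. The lead of gene ends over the rest was 31.9 ± 7.87 points with the gRNA and 18.5 ± 0.58 points with empty vector (SD, n = 2 each), 13.4 points higher with the gRNA (exact permutation p = 0.33, two-sided). That difference was 5.65 points at matched widths, 5.17 with equal list length and 7.88 without gRNA replicate 2.

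Peaks held by both Utx KO empty libraries and by neither gRNA library numbered 177 of 10863 at gene ends (1.63%), beside a background of 8.24% over all regions, and 82 of 8246 at gene starts (0.994%). Gains numbered 12 of 10257 (0.117%, background 0.254%). The losses with the widest peaks were at Ehbp1, which links vesicles to actin, Acad12, an acyl-CoA dehydrogenase family gene, Spon1, an extracellular matrix protein, Col18a1, the collagen that gives rise to endostatin, and Adamtsl2. The lost Ehbp1 region lay 366 bp from the gene's start, and the lost Acad12 region at the gene's other end. The Ehbp1 region was 333 bp wide, under empty-vector peaks of 1306 and 1434 bp that reach beyond it. The Acad12 region was 451 bp wide, under peaks of 1097 and 387 bp. The promoter windows of these 2 genes lay at other regions, which all 10 other ATAC libraries held. The Col18a1 start had no peak in the 2 Utx KO gRNA libraries and peaks of 634 and 217 bp in the empty libraries. It also had no peak in the Chd4 gRNA libraries and peaks of 325 and 246 bp in their empty libraries, and no PU.1 island in any of 6 lists. In Utx WT cells the same start kept peaks of 1069 and 1156 bp with the Smarca4 gRNA, against 1317 and 1185 bp with empty vector. The count was 639 without gRNA replicate 1, 288 and 274 without empty replicate 1 and 2, and 43 with lists cut to equal length.

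The Chd4 gRNA was compared with the empty vector of its own set. The gRNA libraries held 81.3% and 72.7% of the regions and the empty libraries 86.7% and 82.8%, so that both gRNA values were the lower ones, by 7.80 points on average (exact permutation test, two-sided, p = 0.33, the smallest possible, adjusted p = 0.4). Their lists held 34429 and 24833 peaks against 48687 and 41480. With equal list length, which changes the members as described above, the difference was -1.33 points. It was -12.1 points without gRNA replicate 1, -3.51 without gRNA replicate 2 and -18.6 where a peak had to cover 50% of the region. The lead of gene ends was 36.1 ± 6.03 points with the gRNA and 27.6 ± 4.54 with empty vector (SD, n = 2 each, exact permutation p = 0.33). That difference of 8.52 points was -3.48 with equal list length, 4.34 at matched widths, 12.8 without gRNA replicate 1, 4.25 without gRNA replicate 2 and 5.30 without empty replicate 1.

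After the Chd4 gRNA, 312 of 9751 regions lost their peak (3.20%, background 8.56%), 187 of 7510 of them at gene starts (2.49%), and 6 of 8564 gained one (0.0701%, background 0.143%). The losses with the widest peaks lay at Cebpa, the myeloid C/EBP factor, Kctd1, Rnf167 and Pfn1, Nup153, a nuclear pore protein, and Cd69, a lymphocyte activation antigen. Width here is that of the whole empty-vector peak, which may reach beyond the lost region. The lost regions at Kctd1, Rnf167 and Pfn1, Nup153 and Cd69 were 600, 358, 364 and 326 bp wide. They lay under empty-vector peaks of up to 2085, 1987, 1893 and 1842 bp. The loss of such a region need not be the loss of the whole peak. The lost Nup153 region lay 949 bp from the gene's start, and the region at Rnf167 and Pfn1 at other ends. The promoter windows of Nup153 and Rnf167 lay at other regions, which all 10 other ATAC libraries held. At Cebpa the region 904 bp from the gene's start had no peak with the gRNA and lay in peaks of 3400 and 3004 bp with empty vector. The region over the start had peaks of 1306 and 1320 bp with the gRNA. With empty vector it lay in the same peaks of 3400 and 3004 bp, which span both regions. The region 904 bp away, like that at Cd69, also had no peak in any Utx KO library. The count was 1172 without gRNA replicate 1, 681 without empty replicate 2 and 90 with lists cut to equal length.

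The remaining contrasts use the libraries that chose the regions, so their values are a description. Of the 11866 regions, 576 had no peak in either Utx KO empty library (4.85%, background 15.5%), and 336 had none in either Utx WT Smarca4 gRNA library (2.83%, background 8.14%). The Utx KO count was 977 or 1038 without Utx WT empty replicate 1 or 2, and 219 with lists cut to equal length. The Smarca4 gRNA count was 641 or 733 without Utx WT empty replicate 1 or 2, 731 without gRNA replicate 2, and 157 with equal lists. Among the widest of those without a peak in Utx KO, the region at Foxa2, an endoderm factor, lay 599 bp from the gene's other end. It had no peak in the 4 Utx KO libraries, and none in the 4 Utx WT libraries of set A either. The Mctp2 start, a calcium-binding membrane protein gene whose window is printed above, had none in the 4 Utx KO libraries. It had peaks of 1063 and 889 bp with the Smarca4 gRNA in Utx WT and of 1087 and 943 bp in Utx WT empty. In the Chd4 set it had peaks of 690 and 669 bp with the gRNA and 875 and 888 bp with empty vector. PU.1 and H3K4me1 islands lay over it in every ChIP library. Extl1, Vstm2b and Cntn4 were the others of the 5 widest. Vstm2b and Cntn4 had no peak in set A either, and Extl1 had a peak there only in empty-vector replicate 1 (356 bp). The 5 widest without a peak after the Smarca4 gRNA in Utx WT were Gp9, Mn1, Fscn1, the actin bundler fascin, Smim6 and Kdm2b, a histone demethylase, with peaks of 210 to 992 bp in the Utx WT empty libraries. None of these 5 had a peak in the Utx KO empty libraries either. In set A, Gp9, Mn1, Fscn1 and Kdm2b had no peak with or without the Chd4 gRNA. Smim6 had peaks there of 778 and 459 bp with the gRNA and 1069 and 764 bp with empty vector.

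Members were also described by the ChIP islands they carried. By the islands in Utx WT cells, 7863 regions had both (in all libraries), 262 had PU.1 without H3K4me1, 959 had H3K4me1 without PU.1, 197 had neither and 2585 were mixed between libraries. Regions with both were held at 94.9% and 91.1% by the Utx KO Smarca4 gRNA libraries, 95.6% and 95.6% by Utx KO empty, 96.6% and 97.6% by Utx WT Smarca4 gRNA, 90.1% and 82.6% by Chd4 gRNA and 94.3% and 91.6% by its empty vector. Regions with H3K4me1 alone were held at 77.8% and 64.7% by Utx KO Smarca4 gRNA, 81.4% and 80.9% by Utx KO empty, 79.1% and 87.2% by Utx WT Smarca4 gRNA, 30.03% and 15.0% by Chd4 gRNA and 41.9% and 30.8% by its empty vector. Regions with PU.1 alone were held at 74.4% to 95.4%. The gap between members with both and members with H3K4me1 alone, a comparison chosen after these values were seen and so given with no test, was 34.1 ± 23.1 points (SD over 10 libraries) and ran from 10.5 to 67.6. With H3K4me1 Utx WT replicate 1 left out of the classes, 9256 regions had both and 1060 H3K4me1 alone, held at 83.8% to 97.9% and at 15.5% to 87.1% over the 10 libraries, and the gap was 34.7 points. Median widths were 1169 bp with both and 643 bp with H3K4me1 alone, and weighted to the widths of the H3K4me1-only regions the gap was 22.5 points (4.56 to 49.1).

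The H3K4me1-only regions were held at 15.0% to 41.9% in set A, with and without the Chd4 gRNA, and at 64.7% to 87.2% in set B, from which the regions were chosen. In this class the Chd4 gRNA libraries held 22.5% at gene ends and 19.1% away from them on average, and the empty-vector libraries of the set 36.3% at gene ends and 34.3% away from them. Of the regions at gene ends, 491 (4.14%) were held by all 6 other libraries of set B and none of set A, against 1895 of the other regions (6.12%). The submitters' processing notes name other tools for the sets, and what distinguishes the sets cannot be told apart.

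**Figure D5:**
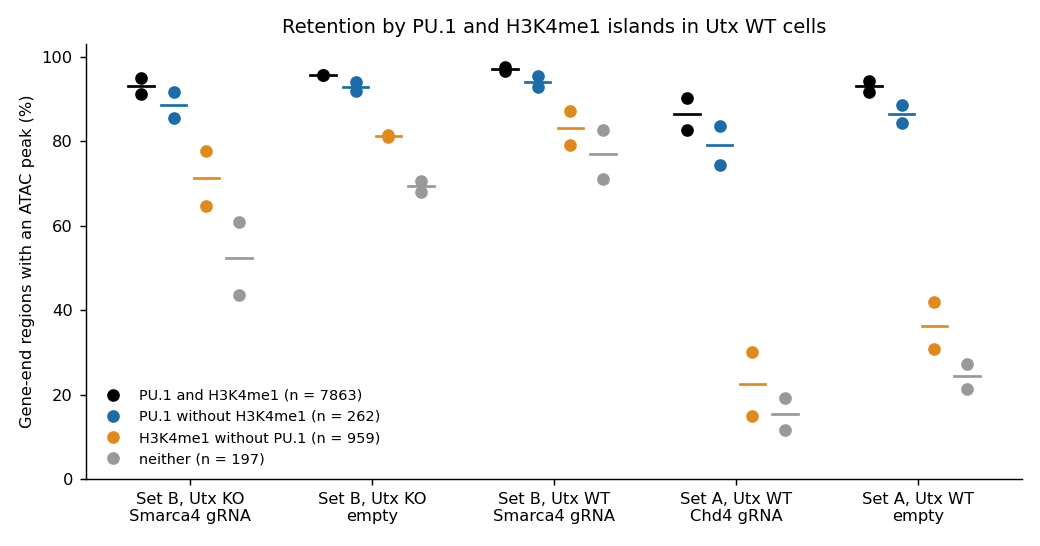
Share of gene-end regions with an ATAC peak (y axis, %) by the PU.1 and H3K4me1 islands they carry in Utx WT cells, one point per library with the group mean as a short line. Regions with PU.1 lie at 74.4% or above in all libraries, and regions with H3K4me1 alone are as low as 15.0% in the Chd4 set.

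Genes with known roles were read against these regions in 20 lists, with 440 of 442 entries matched to the annotation. A region lay at 32 of 33 ribosomal protein genes, 19 of 19 autosomal splicing genes, 22 of 23 respiratory chain genes and 22 of 24 housekeeping genes, beside 56.8% of all autosomal genes. All 10 other libraries held 83.3%, 96.0%, 95.8% and 86.7% of these regions, beside 69.9% of all 11866. Genes of remodelling and histone-modifying complexes had regions at 44 of 45, of which 76.8% were held by all 10, and 5 of the 52 tested were lost after the Chd4 gRNA, beside 3.20% of all members and the background of 8.56%. These lay at Smarcc2, Pbrm1, Mta1, Ncoa6 and Bmi1. Mta1 is a NuRD subunit, and the regions over the Pbrm1 and Smarcc2 starts were held by all 10. AP-1 and Krüppel-like factor genes had regions at 20 of 20 and cell cycle genes at 22 of 24.

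Lineage genes gave lower counts. Stem cell genes had regions at 17 of 24, with 60.0% of them held by all 10 libraries, and included Meis1, Runx1, Tal1, Kit, Gfi1 and Cd34. Monocyte and macrophage genes had regions at 11 of 20 (71.4% held by all 10), megakaryocyte genes at 13 of 20 (46.7%), erythroid genes at 10 of 19 (30.8%), granulocyte genes at 7 of 20 (2 of 10 regions held by all 10), B cell genes at 7 of 18 (3 of 10 regions), T and NK cell genes at 9 of 20 (15.4%) and stromal and endothelial genes at 7 of 16 (14.3%). Neuron genes had regions at 5 of 18 with none held by all 10, and liver genes at 4 of 19. Hoxa9, Hoxa10 and Lmo2 were among the stem cell genes with no region at their ends, while Kit and Cd34, which mark progenitors, had one or more.

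Erythroid regions were held unevenly. Chd4 gRNA libraries held 42.3% of 13 on average and their empty libraries 57.7%, Utx KO Smarca4 gRNA libraries 69.2%, Utx KO empty 96.2% and Utx WT Smarca4 gRNA 100%. The region over the start of Epor, the erythropoietin receptor gene, had no peak in the Utx KO Smarca4 gRNA libraries, 405 and 361 bp in the Utx KO empty libraries and 256 and 423 bp in the Utx WT Smarca4 gRNA libraries, and none in set A. The region at Ank1, the erythrocyte ankyrin, had no peak in Utx KO Smarca4 gRNA, 310 and 246 bp in Utx KO empty, 519 and 460 bp in Utx WT Smarca4 gRNA and none in set A. Klf1, the erythroid Krüppel-like factor, had a region held by all 10 within 1 kb of its ends, but no region overlapped its promoter window. With 13 regions these shares are descriptions.

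Mast cell and basophil genes had regions at 13 of 17 (76.5%), with PU.1 in all 3 Utx WT libraries at only 5 of 17 regions (29.4%). Over all members, the stricter measure of PU.1 in all 6 libraries was met by 78.0%. The member with the widest peak in Utx WT empty replicate 1, 6700 bp in a merged region of 6817 bp, lay over the mast cell tryptase genes Tpsb2 and Tpsg1, and no PU.1 or H3K4me1 island touched it in any library. It was 2146 and 2447 bp wide in Utx KO Smarca4 gRNA, 3403 and 3415 bp in Utx KO empty, 3447 and 3576 bp in Utx WT Smarca4 gRNA, 6700 and 6787 bp in Utx WT empty, 367 bp and absent in Chd4 gRNA and 421 and 366 bp in its empty libraries. Cpa3, mast cell carboxypeptidase, Ms4a2, a chain of the IgE receptor, Cma1 and Gzmb likewise had open regions without PU.1 in Utx WT. Other genes of the list went the other way. The regions over the starts of Hpgds, Kit, Mitf and Gata2 had PU.1 in all 6 libraries, and that of Fcer1a in 5. The part of mast cells in either assay was not tested. The other 4 of the 5 members with the widest peaks in that library were Bbc3, the pro-apoptotic gene Puma, Il4ra, Ddit3 and St3gal1, all with PU.1 and H3K4me1 in every library and held by all 10.

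The targeted genes had open starts throughout. The Smarca4 start was 1235 and 1236 bp wide in Utx KO Smarca4 gRNA, 1115 and 1176 bp in Utx KO empty, 1230 and 1321 bp in Utx WT Smarca4 gRNA, 1145 and 1332 bp in Utx WT empty, 1086 and 925 bp in Chd4 gRNA and 1166 and 1113 bp in its empty libraries. The Chd4 start was open in all 12 lists as well, at 928 and 821 bp with the Chd4 gRNA and 952 and 735 bp with its empty vector. A peak at a promoter does not report on a guide's cut inside the gene, so these values check no editing. Kdm6a lies on chromosome X and is outside the rule. The region at Spi1 was 901 bp wide. Its peaks were 701 and 849 bp in Utx KO Smarca4 gRNA and 718 and 797 bp in Utx KO empty. They were 753 and 894 bp in Utx WT Smarca4 gRNA and 795 and 901 bp in Utx WT empty. In set A, peaks of 1983 and 1899 bp with the Chd4 gRNA and 3012 and 3169 bp with empty vector reached beyond the region. The PU.1 islands over the region had 1621, 1764 and 1390 reads in Utx KO and 2059, 2082 and 2898 in Utx WT. Gata2, the progenitor GATA factor, had a region at its start with PU.1 in all 6 lists and one at its other end with none.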

How the data were processed

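Peak lists of 22 libraries were used, 12 from ATAC-seq and 10 from ChIP-seq. Per the submitters' processing notes, Bowtie, Bowtie2, SICER and MACS2 were used with build mm10 (for the Chd4 set Bowtie and MACS2), without versions or roles. The deposited ChIP lists give islands on a 200 bp grid and a whole number per island. It was read as a count of reads, an inference from the format, and is unscaled. The deposited ATAC lists give starts and ends alone, so no interval or floor from counts could be set. Inputs were not analysed here.

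Overlapping or adjoining peaks of the rule's libraries were joined, and a library held a region with an overlap of at least 1 bp. Gene spans, strand and promoter windows came from RefSeq tables (GRCm38.p6). Genes without strand were not split into starts and other ends. Libraries were compared by exact permutation tests of means and exact sign-flip tests, with Benjamini-Hochberg adjustment over 12 tests and a threshold of 0.05. The members, lists and comparisons were chosen with earlier results of these data known. Named were the targeted genes and Spi1 and Gata2, the 5 widest or highest-count members of each class of change, the 5 genes with most members, 3 regions on each side of the distance limit and up to 4 genes per list. Genes named outside that rule were chosen after their values were seen. The counting rules were checked on copies of the peak lists with planted losses, and the test code on made-up values. Alternatives are given in the closing section. Scripts ran under Python 3.11.15 with pandas 2.3.3 and numpy 2.4.6, the test code was checked against scipy 1.17.1, and plots used matplotlib 3.10.9.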

Additional observations from a re-analysis of the deposited data

How the results depend on the processing

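The lead of gene ends over other regions in ATAC retention and that of starts over other ends kept their direction and p = 0.00195 (exact sign-flip permutation tests) under the 8 alternatives that keep all libraries, and stayed positive without any one ATAC library. The untested gap between members with both PU.1 and H3K4me1 and those with H3K4me1 alone was 22.5 to 35.1 points under these alternatives and 30.4 to 38.7 with 1 library left out. The PU.1 lead was 22.1 to 23.8 points when 1 library was left out, and its p became 0.0625 with 5 PU.1 libraries, the smallest that 5 allow. Without H3K4me1 Utx WT replicate 1 the H3K4me1 difference was -2.69 points (-2.69 to 9.82 over libraries left out). With lists cut to equal length the Chd4 effect on the lead was -3.48 points. The cause was not tested.

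Counts of lost and gained regions and 2 retention values also moved. With at least 50% of a region covered, losses were 782 (Chd4 gRNA), 511 (Smarca4 gRNA in Utx WT) and 920 (Utx KO), H3K4me1 gains 290, and retention 92.4% (Smarca4 gRNA in Utx WT) and 89.3% (Utx KO). With ends within 500 bp, losses were 116 (Smarca4 gRNA in Utx KO), 214 (in Utx WT) and 329 (Utx KO), and Utx KO retention 95.5%. With 2 kb, losses were 475 (Chd4 gRNA), 336 and 538 (Smarca4 gRNA in Utx KO and in Utx WT), 1024 (Utx KO) and 158 (H3K4me1), and retention 93.3% (Smarca4 gRNA in Utx WT) and 90.4% (Utx KO). With the upper 50% of each list, losses were 383 (Utx KO) and 8 (PU.1), H3K4me1 gains 229, and Utx KO retention 94.1%. With equal lists, losses were 90 (Chd4 gRNA), 43 and 157 (Smarca4 gRNA in Utx KO and in Utx WT), 219 (Utx KO) and 37 (H3K4me1), gains 183 (H3K4me1) and 36 (PU.1), and retention 97.2% (Smarca4 gRNA in Utx WT) and 96.8% (Utx KO). With X included, Utx KO retention was 93.4%. With 1 library left out, losses ran from 358 to 1172 (Chd4 gRNA), 206 to 639 and 464 to 733 (Smarca4 gRNA in Utx KO and in Utx WT), 787 to 1038 (Utx KO), 122 to 372 (H3K4me1) and 33 to 66 (PU.1), gains from 87 to 1271 (H3K4me1) and 62 to 120 (PU.1), and retention from 91.4% to 96.1% (Smarca4 gRNA in Utx WT) and 89.5% to 93.4% (Utx KO). Fewer libraries make the all-or-none rule easier to meet. Cut lists kept the widest ATAC peaks or the ChIP islands with the highest counts. The members changed with them, to 9542 with the upper 50% and 10064 with equal lists.

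Deviations of same-numbered replicates had correlations of -0.054 to 0.101. For the guide comparisons they were 0.058 (Smarca4 in Utx KO), -0.016 (Smarca4 in Utx WT) and 0.095 (Chd4). With 2 libraries per group, same-numbered and other pairs give equal and opposite values by construction. The correlations therefore cannot decide whether same-numbered libraries share a source, and the main tests took them as unpaired. With the replicate block each value was as without it (-3.73, -7.80, 13.4, 8.52, 11.3, 1.25, 0.94 and 3.56 points), p was 0.5 to 1, and no call changed. The block was run for comparisons between groups alone. The sign-flip tests of the retention leads were not run with a block by source. The alternatives for ChIP gains and losses, for the gap between the PU.1 classes, for the PU.1 and H3K4me1 leads in Utx KO against Utx WT, and the width weighting of starts against other ends were chosen after seeing the data. Sequence around region centres was not run. ATAC depth is unknown, so a missing peak was not detected and may not be absent.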

Other observations

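Further counts were taken for lists of regulators and response genes. ETS family genes had regions at 13 of 15, of which 10 of 15 regions were held by all 10 other ATAC libraries. Interferon response genes had regions at 15 of 19, with 12 of 15 held by all 10. AP-1 and Krüppel-like factor genes had 30 regions, 24 of them held by all 10, and 3 of the 28 tested were lost after the Chd4 gRNA, beside 3.20% of all members and the background of 8.56%. Cell cycle and growth genes had 27 regions, 25 of them held by all 10, and liver genes 5 regions, 1 of them held by all 10. These lists are small and the shares are descriptions.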
